A study of Mus musculus with 8 samples.

Results

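The sequences described here were miRNA reads that carried 1 to 3 extra nucleotides at the 3′ end. A sequence was taken when it had no annotation hit of its own, equalled a sequence with a mouse miRNA hit (its untailed parent, the longest such sequence) plus 1 to 3 nucleotides, and was not exactly 1 substitution away from an annotated miRNA sequence of the same length. Of the 11568 distinct sequences in the table, 879 met the first conditions, 585 of these were left out as 1 substitution away, and 294 remained. They were grouped by the added bases into 85 with T only, 72 with A only and 137 with other tails. The RNA came from MIN6B1, a mouse insulinoma line with beta-cell features. Cells had received either a control plasmid or a plasmid for HENMT1ΔC-T6B, a methyltransferase joined to the Argonaute-binding peptide T6B, delivered with a cationic lipid reagent over 4 h, followed by 24 to 72 h in medium. RNA of each plasmid was sequenced without oxidation or after oxidation with NaIO4 (periodate), with 2 libraries in each of the 4 groups, each made from 5 ng of RNA with the QIAseq miRNA kit. Transfection reaches only some of the cells of a culture, and the labels do not say whether the libraries of a group came from separate cultures, so p-values measure only the spread between these libraries.

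miRNAs are held by Argonaute proteins and pair with their targets mainly through the seed, bases 2 to 8 from the 5′ end. Terminal nucleotidyl transferases such as TUT4 and TUT7 add uridine to the 3′ end of small RNAs, and other enzymes of the class add adenosine; these bases are not encoded in the hairpin and are called non-templated tails. Periodate oxidizes a 3′ end that carries free 2′ and 3′ hydroxyls, which then cannot be ligated to an adapter, and a methyl group on the 2′ oxygen, the mark that HEN1-type enzymes place, protects it. A tailed miRNA can end in another base than the untailed form, and each tailed sequence was set beside its own parent in the same library.

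The sequences on which the results turn are printed here 5′ to 3′ as DNA letters from the deposited table, with the seed and the added tail in capitals. They show the same miRNA ending in different added bases, and the abundant T-tailed forms.
miR-24-3p with T: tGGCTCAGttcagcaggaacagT
miR-652-3p with T: aATGGCGCcactagggttgtgT
mir-30e with T: tGTAAACAtccttgactggaagctT
miR-99a-5p with T: aACCCGTAgatccgatcttgtgT
miR-320-3p (22 nt) with TT: aAAAGCTGggttgagagggcgaTT
miR-320-3p (21 nt) with TT: aAAAGCTGggttgagagggcgTT
let-7b-5p with AT: tGAGGTAGtaggttgtgtggttAT
let-7b-5p with AA: tGAGGTAGtaggttgtgtggttAA
let-7b-5p with AG: tGAGGTAGtaggttgtgtggttAG
let-7i-5p with AT: tGAGGTAGtagtttgtgctgttAT
let-7b (23 nt) with TT: tGAGGTAGtaggttgtgtggtttTT
let-7b (23 nt) with AT: tGAGGTAGtaggttgtgtggtttAT
miR-26a-5p with AT: tTCAAGTAatccaggataggctAT
miR-375-3p with TT: tTTGTTCGttcggctcgcgtgaTT
miR-375-3p with TA: tTTGTTCGttcggctcgcgtgaTA
miR-375-3p with AA: tTTGTTCGttcggctcgcgtgaAA
miR-375-3p with AT: tTTGTTCGttcggctcgcgtgaAT

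The 294 sequences were 20 to 27 nt long, with a median of 24 nt, and came from 131 parents carrying 82 miRNA names. The commonest tails were a single T on 45 sequences, TT on 33, a single A on 32 and AA on 30, while the longer TTT was found on 7 and AAA on 10. A tail that began with A and ended in T occurred on 20 sequences, and one that began with T and ended in A on another 20. The sequences fell into 51 seed groups. The let-7 seed GAGGTAG led, with 10 T-only, 25 A-only and 71 other tails. The miR-375 seed TTGTTCG held 28, and the miR-320 and miR-574 seeds held 11 each. let-7 is an abundant miRNA family of differentiated cells, and miR-375 is a miRNA typical of pancreatic islets.

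The tails were compared with RefSeq hairpins on GRCm38.p6. The parents of 249 sequences lay in a hairpin of that table, 164 sequences on the 5p arm and 85 on the 3p arm. On 246 of the 249 no tail base matched the hairpin base at its place when read from the parent's end, and on 3 (2 of mir-671 and 1 of mir-301a) only the first base did. The parents of the other 45 sequences, among them the named forms of miR-320-3p and mir-5099, lay in no hairpin of that table. Their tails were therefore not compared with a hairpin. let-7b-5p was read from chr15:85707325-85707346 on the plus strand, the 5p arm of Mirlet7b. miR-375-3p came from chr1:74900661-74900682 on the minus strand, the 3p arm of Mir375. miR-24-3p matched Mir24-2 at chr8:84208875-84208896 on the plus strand, and its parent also had a hit to mir-24-1. Only 7 of the 294 tailed sequences had a genomic match in the deposited table, all of them forms of miR-574.

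Listed counts ranged from 2446036 to 6641250 in 6 libraries and were 438363 and 295094 in the oxidized control libraries. The table lists sequences seen in the oxidized methyltransferase libraries: every sequence has at least 2 counts in each of them and 10 over both, so the level there is bounded from below by how the list was made. The beta-cell miRNAs miR-375-3p and miR-7a-5p made up 8.42% to 10.5% and 5.83% to 7.03% of listed counts in the non-oxidized control libraries, while the listed markers of blood, muscle and fibroblasts (miR-142a, miR-223, miR-451a, miR-1a, miR-133a, miR-206, miR-143 and miR-145a) had no sequence. The liver marker miR-122-5p stood at most at 0.0243% and the endothelial marker miR-126a-3p at most at 0.00593%. Their part in the results was not tested.

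In the non-oxidized control cells, T was the most abundant tail. T-only tails summed to 32643 and 32742 counts, A-only tails to 7975 and 10089 and other tails to 18275 and 22510, or 0.549% ± 0.0799, 0.150% ± 0.00274 and 0.339% ± 0.000212 of listed counts (SD, n = 2). A large part of each group came from one miRNA. miR-24-3p with T held 33.5% and 33.8% of the T-only counts, and let-7b-5p with AT held 62.3% and 67.9% of the counts of tails that began with A and ended in T. The plot of tail groups by library shows the level of each group.

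**Figure D1:**
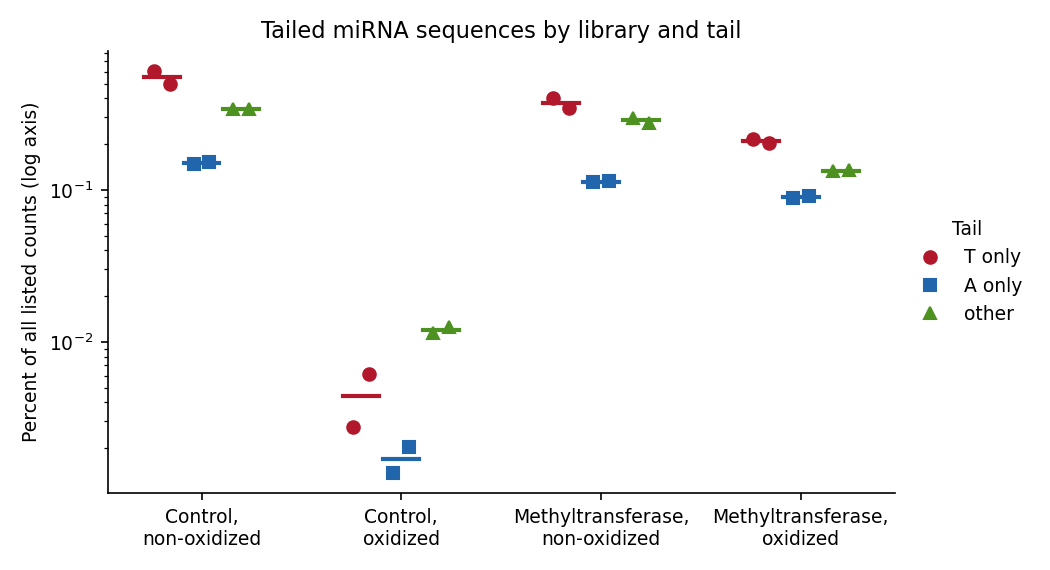
Tailed sequences in each library as percent of all listed counts (log axis), by tail group; points are the 2 libraries of a group and the bar is their mean. Each tail group is at most at 0.0125% in the oxidized control libraries and between 0.0888% and 0.606% in the other 6.

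miR-24-3p, a miRNA of the miR-23/27/24 clusters, was read mostly with an added T. The T-tailed sequence had 10922 and 11057 counts in the non-oxidized control libraries, 4170 and 4236 with the methyltransferase plasmid, and 2132 and 1205 there after oxidation. Its parent had 374 and 618, 344 and 294, and 44 and 25 counts in the same libraries, so the tailed form was above the parent in all 6. In the oxidized control libraries the T-tailed form had 2 and 3 counts. miR-652-3p was also read mostly with T, and this form had 1825 and 1384, 732 and 972, and 1076 and 703 counts, against 154 and 96, 65 and 94, and 40 and 47 for its parent. In all, 11 of the 294 sequences exceeded their own parent in both non-oxidized control libraries, and 8 of these had at least 100 counts in both non-oxidized methyltransferase libraries. Besides these 2 they were T or TT forms of mir-23b, miR-700-3p, mir-760, miR-187-3p and miR-375-3p, a GTT form of miR-187-3p and the 3 forms of mir-5099. Reads of an untailed form that ended elsewhere are not in these ratios. miR-24-3p, for instance, also had shorter untailed sequences in the table.

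Among the 74 parents with at least 1000 counts in both non-oxidized control libraries, the highest T-tailed shares belonged to miR-320-3p and miR-99a-5p. miR-320-3p is made from a short hairpin that is not cut by Drosha. Of the counts of its 22-nt form, tails included, 30.4% and 32.3% carried T-only tails in the non-oxidized control libraries, 16.1% and 17.8% with the methyltransferase plasmid, and 5.72% and 3.29% there after oxidation. Of its 21-nt form, which lacks the last base A, the shares were 21.6% and 24.3%, 22.0% and 21.6%, and then 48.6% and 40.3%. After oxidation the T-tailed share of the 22-nt form was thus below, and that of the 21-nt form above, both non-oxidized libraries of the same plasmid. miR-99a-5p carried T-only tails on 19.0% and 15.3% of its counts in the non-oxidized control libraries, 9.59% and 8.10% with the methyltransferase plasmid, and 10.2% and 2.11% there after oxidation, where the libraries straddled the non-oxidized ones. With 2 libraries against 2, an exact permutation test cannot give a p below 0.333, so these orders are descriptions.

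**Figure D2:**
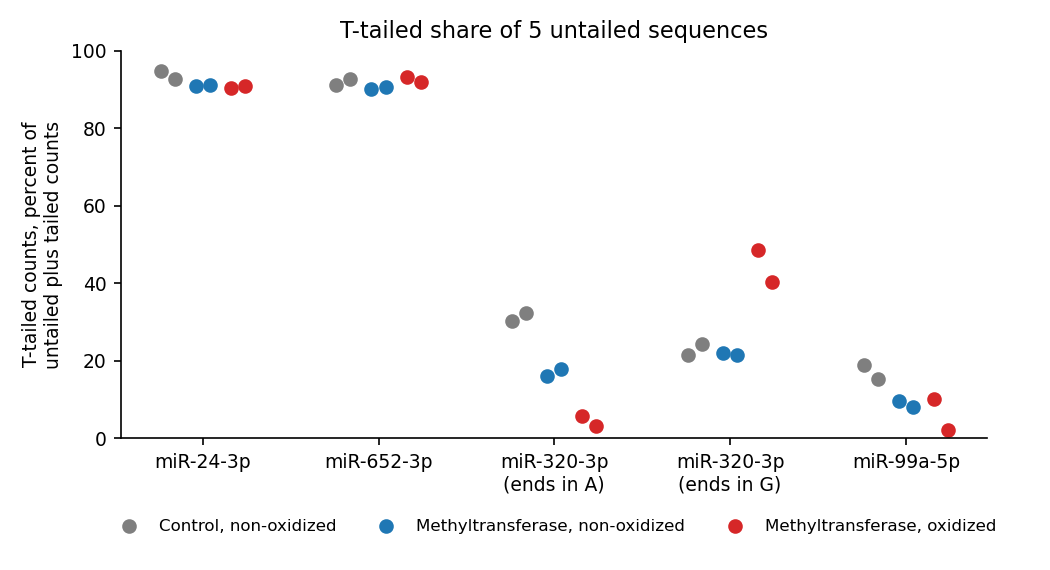
T-tailed counts as percent of untailed plus tailed counts of 5 parents, 1 point per library, in non-oxidized control, non-oxidized methyltransferase and oxidized methyltransferase RNA. The shares of miR-24-3p and miR-652-3p are 90.3% or more in all 6 libraries, and those of the 2 forms of miR-320-3p part after oxidation.

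The largest A-only shares were smaller. miR-574-5p, miR-99a-5p and miR-185-5p led. miR-185-5p with AA had 109 and 126 counts in the non-oxidized control libraries, which was 2.71% and 2.79% of its parent, 59 and 45 counts (2.72% and 1.78%) with the methyltransferase plasmid and 29 and 23 counts (1.77% and 2.21%) there after oxidation. As percent of the parent the 2 methyltransferase groups overlapped, and the oxidized one lay below the non-oxidized control. miR-574-5p with AA ran at 3.70% and 6.09%, 3.72% and 5.14%, and 3.78% and 4.32% of its parent in the same order, where all 3 groups overlapped. At the other end stood 3 let-7 parents, a 23-nt form of let-7c-1, let-7f-5p and a 20-nt form of let-7a-5p. let-7f-5p, with 135530 and 177894 counts in the non-oxidized control libraries, had 33 and 51 counts with AA, or 0.0243% and 0.0287% of the parent. The let-7c-1 form had 5 and 14 counts with GT, and the let-7a-5p form 1 and 3 with CTA.

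The first comparison asked whether the methyltransferase plasmid alone went with other levels of tailed miRNAs, before any oxidation. By edgeR's quasi-likelihood test, 0 of the 228 tailed sequences that passed the filter on low counts were called at an adjusted p under 0.05, and 0% of all 9851 sequences tested were. At an unadjusted p under 0.05, 57 were lower and 1 was higher, against 466 lower and 392 higher of all sequences and 207 lower and 2 higher of the 865 with a miRNA hit. The smallest adjusted p of a tailed sequence was 0.269. A Wald test in DESeq2 called 6 lower, 4.17% of the tailed sequences to which it gave an adjusted p, against 2.52% of all sequences (36 higher, 68 lower). The median log2 fold change was -0.82 over the tailed sequences, -0.65 over sequences with a miRNA hit and 0.05 over all sequences. As share of tails plus parents, T-only tails stood at 0.859% ± 0.128 with the control plasmid and 0.641% ± 0.0732 with the methyltransferase plasmid (SD, n = 2), A-only tails at 0.234% ± 0.00350 and 0.194% ± 0.00157, and other tails at 0.530% ± 0.00208 and 0.491% ± 0.0310. In each tail group the 2 methyltransferase libraries lay below the 2 control libraries. With tails of 1 base alone the order held for T-only tails (10.8% and 9.90%) and turned for A-only (0.578% and 0.665%) and other tails (0.114% and 0.231%). Only 2 sequences had an other tail of 1 base. Without the condition on 1 substitution the order held for T-only tails (3.16% and 2.59%) and turned for A-only (1.49% and 1.50%) and other tails (1.23% and 1.48%).

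Oxidation of RNA from control cells removed nearly all tailed reads. T-only tails summed to 12 and 18 counts in the oxidized control libraries, A-only tails to 6 and 6 and other tails to 50 and 37. Of the 294 sequences, 274 were at 0 in both libraries, and 10 had more than 3 counts in one of them. A count of 0 in these libraries allows up to 0.000684% and 0.00102% of listed counts (3 counts, counting error only). All 3 mir-5099 forms were among the 10, with up to 20 counts. With the control plasmid, 227 of the 228 tested sequences were lower after oxidation (edgeR), where 64.8% of all sequences were called and 46.4% were called lower. Of the 865 tested sequences with a miRNA hit, 817 were lower. For let-7b-5p with AA, which had 1840 and 2596 counts before and 0 and 0 after oxidation, the share of listed counts was at least 43.1-fold lower, taking 3 counts per library as the floor. Scaled by total counts, 75.4% of the tested tailed sequences were called in this comparison against 76.5% of all sequences, of which 5202 were higher and 2331 lower.

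After oxidation, tailed sequences were far more abundant with the methyltransferase plasmid than with the control plasmid. Of the 228, 226 were higher and none lower (edgeR), where 46.2% of all sequences were called, 42.3% higher and 3.92% lower. Of the 865 tested sequences with a miRNA hit, 766 were higher and 1 lower. The list was made from the oxidized methyltransferase libraries, so this count is a description, and it rests on the scaling. With total counts 150 were called, 2 of them lower, or 65.8% of the tailed sequences against 76.5% of all sequences, of which 2743 were higher and 4794 lower. As share of listed counts, with 3 counts per library as the floor, miR-652-3p with T was at least 37.3-fold higher, let-7b-5p with AA at least 33.3-fold and miR-375-3p with TT at least 20.6-fold. Of the 274 sequences at 0 in both oxidized control libraries, 73 had a share above that floor in the oxidized methyltransferase libraries, and for the other 201 no difference in share was detectable at this depth. The 2 sequences not called were an A-only tail and another tail. In the authors' deposited table, 286 of the 294 sequences were higher at an adjusted p under 0.05 and 0 lower, where 47.2% of all listed sequences passed.

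Oxidized RNA of the methyltransferase cells was then compared with their non-oxidized RNA. Of the 228 tailed sequences tested, 72 fell and none rose (edgeR, adjusted p under 0.05), where 12.9% of all sequences were called and 11.2% were called lower. Fewer were called without oxidized methyltransferase library 1 or 2, fits that keep 1 library in that group. The median log2 fold change of tailed sequences was -1.19 without library 1 and -1.10 without library 2. The share that fell was 31.6% of tailed sequences and 39.2% of sequences with a miRNA hit (339 of 865), a difference that was not tested. The medians were -1.27 for tailed sequences, -1.32 for miRNA sequences and 0.09 for all sequences on the log2 scale. These directions rest on the scaling: with the fit centred on miRNA and tailed sequences alone, 58 tailed sequences were higher and 22 lower, or 35.9% against 43.7% of all sequences in that fit (337 higher, 139 lower), and the median of the sequences it tested moved up by 1.98. The differences between a tailed sequence and its parent, and between tails on one parent, do not rest on it. The authors' deposited table had 0 tailed sequences higher and 77 lower, where 11.1% of all listed sequences passed.

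The tail groups differed in how many fell: 38 of 79 T-only sequences (median log2 fold change -1.82), 10 of 56 A-only sequences (-1.13) and 24 of 93 with other tails (-0.77). Fewer of each group were called without oxidized methyltransferase library 1 or 2. The medians were then -1.06 and -0.95 for A-only and -1.75 and -1.66 for T-only sequences. Among the other tails, 15 of the 18 tested tails that began with A and ended in T fell (median -3.11), and 0 of the 13 that began with T and ended in A did (-0.26; smallest adjusted p 0.249, and 0 at an unadjusted p under 0.05). DESeq2 called 0 of these 13 as well. Centred on miRNA and tailed sequences, 9 of 18 and 0 of 12 fell, and 10 of the 12 rose. Sequences with few counts before oxidation cannot show a fall, because the list required counts after it. Single sequences and their parents are therefore compared on the 49 sequences of 29 parents with at least 100 counts in both non-oxidized methyltransferase libraries, a limit chosen after the data were seen. Sums, families, arms and tail lengths below are over all members and carry this limit. Of the 49, 34 fell and 0 rose: 20 of 28 T-only, 2 of 6 A-only and 12 of 15 other. The limit is set on the non-oxidized group of this same comparison, which favours falls. The 11.2% of all sequences called lower is over sequences of any depth, so these counts are descriptions.

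Tails ending in T after A lost most. let-7b-5p with AT had 4750 and 5956 counts before and 468 and 297 after oxidation, or 2.17% and 2.02% of its parent before and 0.167% and 0.153% after, and its log2 fold change was -4.08 ± 0.42 (SE; edgeR adjusted p = 6.23e-05). Its parent had 219190 and 295312 counts before and 280840 and 193595 after, and these overlapped. The difference from the parent was -3.70 on the log2 scale. The related let-7i-5p with AT fell from 209 and 253 to 12 and 6 counts (-4.94 ± 0.61, adjusted p = 0.000237), which was -4.57 below its parent. The 23-nt let-7b with AT fell most of all named sequences, from 416 and 497 to 26 and 8 counts (-5.04 ± 0.54, adjusted p = 0.000143). The same parent with TT fell from 1204 and 1361 to 291 and 179 counts (-2.73 ± 0.39, adjusted p = 0.000869).

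miR-375-3p showed the same order of tails. With AT it had 472 and 420 counts before and 24 and 27 after oxidation (-4.37 ± 0.56, adjusted p = 0.000320). With AA it had 433 and 507 counts before, and went from 0.189% and 0.207% to 0.142% and 0.125% of its parent (-1.98 ± 0.39, adjusted p = 0.00700), and with TT it went from 0.424% and 0.407% to 0.388% and 0.480% (-1.29 ± 0.43, adjusted p = 0.0829). With TA it had 341 and 357 counts before and 452 and 588 after, a log2 fold change of 0.35 ± 0.40 (adjusted p = 0.628), and as percent of its parent it went from 0.149% and 0.146% to 0.483% and 0.496%. The 4 tails on 1 parent thus ranged from a loss in both libraries to counts above both non-oxidized libraries.

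let-7b-5p gave the widest series on 1 parent. Its AA form had 1231 and 1631 counts before and 877 and 693 after oxidation (-1.12 ± 0.37, adjusted p = 0.0771), and its AAA form 199 and 325 before and 144 and 115 after (-1.26 ± 0.63, adjusted p = 0.236). Neither passed the threshold, and neither did AA on the 21-nt let-7b-5p, with 489 and 712 counts before and 372 and 213 after (-1.31 ± 0.41, adjusted p = 0.0618), or on let-7c-5p, with 203 and 379 before and 146 and 149 after (-1.20 ± 0.42, adjusted p = 0.0992). Its AG form had 278 and 438 before and 69 and 31 after (-3.12 ± 0.47, adjusted p = 0.00130), AAT 226 and 304 before and 29 and 12 after (-3.97 ± 0.52, adjusted p = 0.000497), and ATT 149 and 210 before and 49 and 35 after (-2.35 ± 0.44, adjusted p = 0.00465). GA, with 108 and 145 before and 153 and 80 after, overlapped (-0.40 ± 0.46, adjusted p = 0.622). Relative to the parent, AT, AAT and AG lay lowest, at -3.70, -3.59 and -2.74 on the log2 scale, ATT at -1.97, and AA, AAA, GA and GT between -0.88 and -0.02.

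Terminal T and terminal A were then compared on the same miRNA with the same first added base. A tail AT and a tail AA were both listed on 7 parents: let-7b-5p, let-7g-5p, let-7i-5p, miR-26a-5p, miR-200c-3p, miR-375-3p and miR-3099-3p. In all 7, the ratio of AT to AA counts was lower in both oxidized methyltransferase libraries than in both non-oxidized ones. For let-7b-5p the ratio was 4.22 and 4.20 in the non-oxidized control libraries, 3.86 and 3.65 with the methyltransferase plasmid, and 0.534 and 0.429 there after oxidation. For miR-375-3p it was 0.974 and 0.846, then 1.09 and 0.828, then 0.180 and 0.182. The pairs differ in depth, and AT and AA both had at least 100 counts in both non-oxidized methyltransferase libraries only for let-7b-5p and miR-375-3p. In the other pairs except let-7g-5p, AA had fewer counts than AT in these libraries. The AA form thus had less room to fall and stay listed, which can lower the ratio after oxidation. miR-26a-5p kept more AT than AA throughout, with 6.35 and 12.8 before and 2.14 and 2.60 after oxidation, the last from 30 over 14 and 26 over 10 counts. miR-200c-3p changed least, from 2.17 and 1.79 to 0.846 and 0.750. The ratio needs no scaling between libraries. Each parent alone cannot pass an exact permutation test with 2 libraries against 2, and the 7 parents share the same libraries and in part the same seed, so they are not 7 independent tests.

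**Figure D3:**
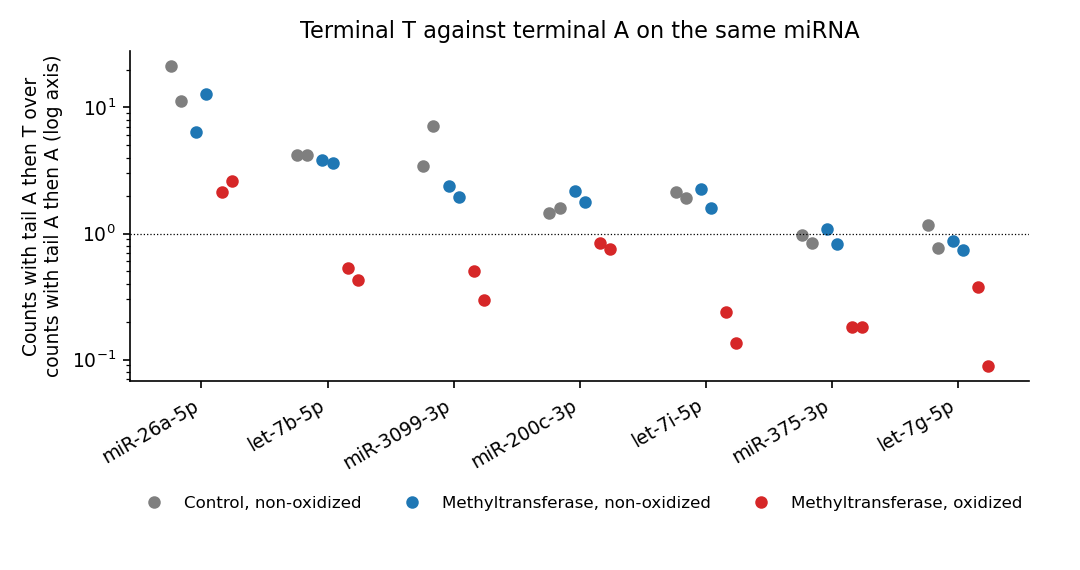
Counts with a tail of A then T over counts with a tail of A then A on the same parent (log axis) for 7 miRNAs, 1 point per library. The oxidized methyltransferase points lie below both non-oxidized methyltransferase points in every miRNA shown.

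Summed over sequences, tails that began with A and ended in T made up 0.543% ± 0.0295 of their own parents' counts before oxidation and 0.0547% ± 0.00886 after it in methyltransferase cells (SD, n = 2). Without let-7b-5p with AT, which held most of these counts, the values were 0.183% and 0.164% before and 0.0261% and 0.0212% after. Tails that began with T and ended in A stood at 0.143% ± 0.000424 and 0.355% ± 0.0363 of their parents, and at 0.137% and 0.141% before and 0.253% and 0.288% after oxidation without miR-375-3p with TA. Only 1 of these 20 sequences had at least 100 counts in both non-oxidized methyltransferase libraries, so most could not fall and stay listed, and no direction is read from their sum. A-only tails went from 0.218% ± 0.00153 to 0.151% ± 0.00280 and T-only tails from 2.56% ± 0.0837 to 1.98% ± 0.355. The libraries did not overlap in any of these groups. With tails of 1 base alone, and only the parents of these tails counted, the direction turned. T-only tails then made up 9.90% of tails plus parents before and 14.8% after oxidation, and A-only tails 0.665% and 2.00%. Whether the tail length or the set of parents made this difference was not tested. Keeping sequences 1 substitution from an annotated miRNA left T-only tails falling, from 2.59% to 1.18%, while A-only tails went from 1.50% to 1.79% and other tails from 1.48% to 2.18%.

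Tailed sequences lay on either side of their parents. Among the 49 abundant sequences, 22 had a higher log2 fold change than their parent and 27 a lower one. By tail, 20 of 28 T-only sequences lay above the parent, as did 0 of 6 A-only sequences and 1 of 8 that began with A and ended in T. The parents' median was -2.41 for T-only and -0.38 for A-only sequences. Where the parent's log2 fold change was at or under -3, all 14 sequences lay above it, against 8 of 35 elsewhere. The parent's change both sets this split and is subtracted in the difference. Tailed forms that fell as far as such a parent could also be missing from the list, so no pattern is read from this split. Over all tested sequences, low counts included, 38 of 78 T-only, 26 of 56 A-only and 1 of 18 A-first, T-last sequences lay above. The part of the tail base in these counts was not tested. miR-24-3p with T had a log2 fold change of -1.63 ± 0.37 (adjusted p = 0.0127), 1.87 above its parent. miR-652-3p with T did not pass the threshold (-0.21 ± 0.38, adjusted p = 0.773), and its sign changed with the scaling. mir-30e with T, a form of a 24-nt parent, fell from 380 and 345 to 43 and 16 counts (-3.93 ± 0.49, adjusted p = 0.000381), yet its parent fell more, from 15658 and 23402 to 383 and 348, and the difference was 2.05. miR-26a-5p with AT fell by 3.53 ± 0.44 (adjusted p = 0.000384), which was 1.33 above its parent, the one AT form of the 8 abundant tails of that class to lie above.

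**Figure D4:**
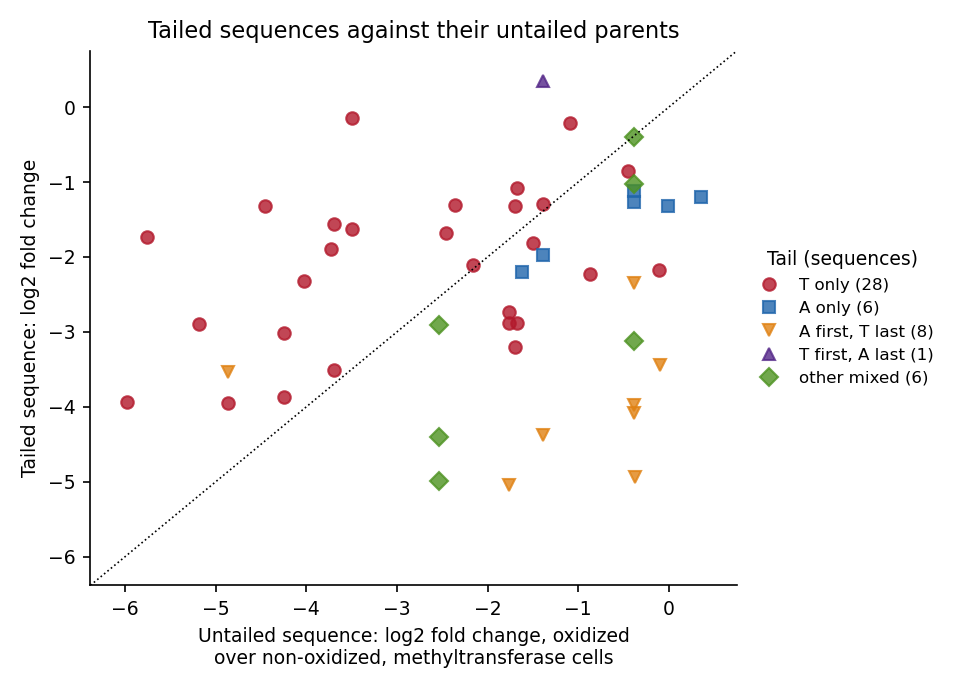
Log2 fold change (oxidized over non-oxidized, methyltransferase cells, edgeR) of 49 abundant tailed sequences against that of their untailed parents, by tail; the dotted line marks equal change. 22 sequences lie above the line and 27 below it, and 7 of the 8 that began with A and ended in T lie below.

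The 2 forms of miR-320-3p showed both directions with the same tail. The 22-nt form, which ends in A, had 3052 and 4047 counts before and 4034 and 3762 after oxidation, and its TT form went from 539 and 808 to 235 and 127 (-2.17 ± 0.52, adjusted p = 0.0167), 2.07 further down than the parent. The 21-nt form, which ends in G, with 1037 and 1847 counts before oxidation, had a log2 fold change of -3.69, and its TT form, with 191 and 346 counts before, had a smaller one (-1.56 ± 0.45, adjusted p = 0.0465), 2.13 above the parent. The TT form of the shorter parent was 96.3% and 72.3% of that parent after oxidation, against 18.4% and 18.7% before. Over parents ending in G, 7 of 9 abundant tailed sequences lay above the parent, with medians of -1.56 for the tailed and -3.50 for the untailed sequences. The 9 came from 7 parents. The parent's low value is subtracted here too, so no effect of the last base is read from this count. On parents ending in T, 9 of 25 lay above.

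The last 2 bases were also compared between tailed and annotated sequences. Abundant tailed sequences ending in AT had a median log2 fold change of -3.97 (9 sequences), and annotated miRNA sequences ending in AT of -3.69 (14). For AA the medians were -1.29 (6) and -1.56 (4), and for GT -1.17 (4) and -1.54 (72). TT differed more, with -2.17 (23) against -1.19 (75). Over all tested tailed sequences TA had 0.22 (26) against -1.66 (14) and CT -1.65 (8) against -3.41 (25). Only 1 TA and 1 CT sequence were abundant (0.35 and -1.31). Sequences with few counts could not fall and stay listed, so no difference is read from TA and CT. Sequences of 1 seed share most of their bases, so these medians are descriptions over related sequences.

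By miRNA family, let-7/miR-98 had the most tailed sequences, and 23 of the 80 tested fell after oxidation in methyltransferase cells (median log2 fold change -1.10). Of all sequences 11.2% were called lower, and of those with a miRNA hit 39.2%. Differences of the families from these shares were not tested. The let-7/miR-98 tails stood at 0.968% and 0.892% of tails plus parents before and 0.315% and 0.291% after oxidation. In the miR-375 family, with 11 of 33 lower, the tailed share was 1.52% and 1.57% before and 1.51% and 1.51% after. The miR-30 family had 7 of 8 lower, and its tailed share was 4.31% and 3.13% before and 11.9% and 8.68% after. The miR-26 family, with 2 of 8 lower, went from 1.80% and 1.63% to 9.25% and 5.42%, and the family of miR-200, miR-141 and miR-429, with 4 of 9 lower, from 1.56% and 1.36% to 0.840% and 0.696%. The tailed share after oxidation was thus below both non-oxidized libraries in let-7 and miR-200 and above them in miR-30 and miR-26. No tailed sequence of the miR-29, miR-181, miR-148 or miR-152 families was among the 294.

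By arm, of the 5p sequences, 37 of 124 fell (29.8%, median -1.19), and of the 3p sequences 22 of 67 (32.8%, -1.25). By length, 33.3% of the tested tails of 1 base, 35.8% of those of 2 bases and 20.8% of those of 3 bases fell, with medians of -1.44, -1.22 and -1.16. All of these shares lay between the 11.2% of all sequences and the 39.2% of sequences with a miRNA hit that were lower. The mir-5099 sequence with GG had 477 and 438 counts in the non-oxidized control and 7 and 4 in the oxidized control. With the methyltransferase it had 420 and 436 counts before and 17 and 15 after oxidation (-4.99 ± 0.45, edgeR adjusted p = 3.47e-05). It was more abundant than its parent, which had 49 and 46 counts before and 7 and 12 after oxidation. The added bases of the mir-5099 forms were not compared with a hairpin, so whether they are templated is not known.

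The difference between the plasmids in their response to oxidation, the interaction term of the fit, was called for 226 of the 228 sequences, all higher, where 42.6% of all sequences were called and 39.6% were called higher. Of the 865 tested sequences with a miRNA hit, 766 were called higher. With total counts 59.2% of the tailed sequences were called against 61.9% of all. For sequences at the floor in the oxidized control libraries its size depends on the prior count of the fit and is not a measurement.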

How the data were processed

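The deposited table gives read counts per distinct sequence in 8 small RNA libraries, with genomic matches and miRNA hits, as the authors made it; the aligner, the genome build and whether molecular identifiers were collapsed are not given in the sources used here. It also holds the authors' fold change (here treated as a score, since its scale is not stated) and adjusted p-value for 2 comparisons, used only where the authors' deposited table is named. The sequence and its tail were taken from the table, parents were placed in RefSeq hairpins (GRCm38.p6), and the members, families and markers were chosen with earlier results of these data known. All 9851 sequences that passed filterByExpr were fitted together with edgeR 4.0.16 in R 4.3.3 (TMM scaling, quasi-likelihood test, 4 groups), p-values were adjusted over all of them by Benjamini-Hochberg, and the threshold was 0.05; standard errors are the log2 fold change over the square root of F. The fits were also run on simulated counts in which few sequences changed, in the oxidized methyltransferase group only. That setting does not test the scaling between groups as unlike as these. Alternatives used DESeq2 1.42.0 and limma 3.58.1. Named sequences were the 5 most abundant of each tail group in the non-oxidized control, the 3 with the deepest fall on oxidation in methyltransferase cells, out of called sequences averaging 50 counts or more whose groups did not overlap, and the tailed forms of the parents with the highest T or A share or lowest share among those with at least 1000 counts. Other sequences in the text were named after their values were seen. Percent-of-parent values and ratios use the counts of 1 library. Same-numbered libraries did not deviate together in every pair of groups (correlations from -0.01 to 0.56 over 2481 sequences), so the numbers were not taken to pair them. The 0.56 was between the non-oxidized control and the non-oxidized methyltransferase groups, and the next highest was 0.14. A pairing within these groups alone was not tested.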

Additional observations from a re-analysis of the deposited data

Results flagged for a closer look

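By the interaction term, control and methyltransferase cells responded unequally to oxidation in 226 of the tested tailed sequences, all with a smaller loss in methyltransferase cells under TMM scaling. The same term was called for 42.6% of all sequences and 88.6% of those with a miRNA hit. Among the 35 sequences chosen by rule, 26 were called but stood at 3 counts or fewer in both oxidized control libraries, and their fitted differences of 4.06 to 13.63 on the log2 scale depend on the prior count. The 5 with more counts in at least 1 of these libraries had differences of 6.42 for let-7b-5p with AT, 6.04 for let-7b-5p with AAA, 6.39 for the 22-nt miR-320-3p with TT, 5.09 for miR-375-3p with AT and 1.75 for mir-5099 with GG (log2, edgeR). Their oxidized control counts were 7 and 9, 0 and 6, 1 and 6, 4 and 0, and 7 and 4 in this order, so these sizes rest on few counts too. The value of mir-5099 with GG changed its sign with the scaling and was -1.75 with total counts.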

How the results depend on the processing

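Listed counts limit what can be seen: 58 tailed sequences had under 10 counts in both non-oxidized methyltransferase libraries and could not show a fall, and the oxidized control libraries are the shallowest. Relative to the TMM fit, the median of all sequences moved by -2.99 with total counts for the plasmids in oxidized RNA, by 4.30 for oxidation with the control plasmid and by 0.86 for oxidation with the methyltransferase plasmid. The cause of the changes below was not tested, except that some alternatives change the number of sequences. With total counts, the tailed sequences called were 150 for the plasmids in oxidized RNA (65.8% of tailed against 76.5% of all sequences), 40 for oxidation with the methyltransferase (17.5% against 16.6%; 4 higher, 36 lower) and 135 for the interaction (59.2% against 61.9%); with the upper quartile, 44 for oxidation with the methyltransferase (19.3% against 15.9%). With only the libraries compared, 84 of 86 tested were called for the plasmids in oxidized RNA (97.7% against 32.7%). With only miRNA and tailed sequences, an alternative added after seeing the data, the calls were 91, 95 and 94 (40.8%, 42.6% and 42.2% against 53.2%, 54.1% and 53.1% of all) for the plasmids in oxidized RNA, oxidation with the control plasmid and the interaction, and oxidation with the methyltransferase reversed to 80 calls, 58 of them higher. DESeq2's Wald test called 6 tailed sequences (4.17% against 2.52%) between the plasmids in non-oxidized RNA.

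Other choices of members gave, for the plasmids in oxidized RNA, oxidation with the control plasmid, oxidation with the methyltransferase and the interaction, 706, 710, 174 and 703 calls without the condition on 1 substitution, 67, 69, 23 and 67 with tails of 1 nucleotide, and 48, 49, 34 and 48 with at least 100 counts (added after seeing the data). The shares of tested sequences were 97.1%, 100%, 33.3% and 97.1% with tails of 1 nucleotide. They were 98.0%, 100%, 69.4% and 98.0% with at least 100 counts, against 46.2%, 64.8%, 12.9% and 42.6% of all sequences, which were of any depth. Leaving out 1 library at a time gave 237 to 256 calls for the plasmids in oxidized RNA, 0 to 0 in non-oxidized RNA, 241 to 257 for oxidation with the control plasmid, 38 to 83 for oxidation with the methyltransferase and 227 to 241 for the interaction, with more sequences passing the filter; the lowest counts for oxidation with the methyltransferase were 43 without oxidized methyltransferase library 1 and 38 without library 2. With the replicate block the calls were 226, 0, 227, 76 and 225 in the order of the 5 comparisons, so no count moved by over 1.5 times. These were 99.1%, 0%, 99.6%, 33.3% and 98.7% of tested tailed sequences, against 47.2%, 0%, 65.4%, 14.1% and 44.0% of all.

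With only miRNA and tailed sequences, the log2 change on oxidation with the methyltransferase turned positive for miR-24-3p with T (0.36), miR-375-3p with TT (0.70), miR-652-3p with T (1.77), let-7b-5p with AA (0.86) and AAA (0.72), miR-375-3p with AA (0.0106), the 21-nt let-7b-5p with AA (0.66), let-7c-5p with AA (0.78) and the 21-nt miR-320-3p with TT (0.41). miR-652-3p with T was also positive with total counts (0.67), the upper quartile (0.57), and only the libraries compared (0.00997), and ranged from -0.38 to 0.10 when 1 library was left out. The interaction of mir-5099 with GG was -1.75 with total counts and -2.55 with only miRNA and tailed sequences. Of 19 differences between a named sequence and its parent, 18 kept their sign under all 18 alternatives; that of miR-375-3p with TT, 0.10, ranged from -0.10 to 0.21.

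The tailed shares of tails plus parents depended on the choice of members. In the order non-oxidized control, non-oxidized methyltransferase, oxidized methyltransferase, they were 3.16%, 2.59% and 1.18% for T-only, 1.49%, 1.50% and 1.79% for A-only and 1.23%, 1.48% and 2.18% for other tails without the condition on 1 substitution. With tails of 1 nucleotide they were 10.8%, 9.90% and 14.8%, 0.578%, 0.665% and 2.00%, and 0.114%, 0.231% and 0.392%, the other tails being only 2 sequences. With mature parents the values that moved by more than 1 SD were 0.308% for T-only after oxidation, 0.267%, 0.210% and 0.136% for A-only, and 0.598% and 0.217% for other tails (control and after oxidation). With parents of at least 100 counts they were 0.266% for T-only and 0.138% for A-only after oxidation, and 0.504%, 0.449% and 0.205% for other tails. With tailed sequences of at least 10 counts they were 0.240%, 0.197% and 0.133% for A-only and 0.551% and 0.188% for other tails. Without genomic matches A-only shares were 0.191% and 0.140% with the methyltransferase before and after oxidation.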
